A study of Mus musculus with 335 samples.

Results

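A set of 8 genes of endothelial identity was followed through single cells of the mouse aorta-gonad-mesonephros region (AGM), the embryonic site where definitive blood stem cells emerge: Cdh5, Kdr, Emcn, Esam, Eng, Sox17, Cldn5 and Myct1. They were taken by name, and the choice was made with earlier results of these data known. Shares over all genes given below are therefore a scale and not independent support. All 8 were found among the 13448 entries with a gene symbol in a table of 14109 entries. Wild-type AGM of stage E11.5 was dissociated with collagenase, and 335 cells were sorted singly into lysis buffer and sequenced with Smart-seq2, a full-length single-cell method. The HSC group (65 cells) was sorted as EPCR+CD45+, the Dorsal group (93 cells) and the Ventral group (89 cells) as Ngfr+Pdgfrb-, and the Mesenchymal group (88 cells) as Pdgfrb+Ngfr- from the ventral side. The label HSC names a gate, not cells shown to be stem cells. Each group was sequenced as 1 of 4 pools and no animal is named, so each group is 1 sample, cells are not replicates, and no test was made. A difference between groups cannot be told apart from a difference between pools. Cells are named by their group and a number, such as HSC 37.

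Blood stem cells of the embryo arise from endothelial cells that line the dorsal aorta, in a change of identity called the endothelial-to-haematopoietic transition. Haemogenic endothelial cells switch on blood transcription factors such as Runx1 and Gfi1, leave the vessel wall and acquire the leukocyte antigen CD45, while their endothelial program is switched off. Cells caught on the way can hold transcripts of both identities. Among the genes followed here, Cdh5, Esam and Cldn5 encode junction proteins, Kdr and Eng encode receptors for VEGF and for ligands of the TGF-beta family, Emcn encodes a sialomucin of the cell surface, Sox17 encodes a transcription factor of arterial and haemogenic endothelium, and Myct1 encodes a small membrane protein.

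Promoters of 5 of the 8 genes (Cldn5, Emcn, Eng, Kdr and Myct1) were present in the RefSeq promoter table for GRCm38.p6. Of these, 4 are shown (Emcn, Eng and Myct1 for their motifs and Cldn5 as 1 of the 2 with none) because endothelial and blood genes share classes of regulators, and because these 8 genes were high in 1 group. Capitals mark 3 motifs found on either strand. AGGAAG is a motif of ETS factors. AGATAA is read by the factors named after the core of that motif. ACAAT is a motif of SOX factors. The windows cover the 250 bases before the RefSeq start, less 11 bases of Emcn that lie in an annotated transcript. Emcn covers chr3:137340828-137341066, Eng chr2:32646345-32646594, Myct1 chr10:5593478-5593727 and Cldn5 chr16:18776597-18776846, all on the plus strand.
Emcn: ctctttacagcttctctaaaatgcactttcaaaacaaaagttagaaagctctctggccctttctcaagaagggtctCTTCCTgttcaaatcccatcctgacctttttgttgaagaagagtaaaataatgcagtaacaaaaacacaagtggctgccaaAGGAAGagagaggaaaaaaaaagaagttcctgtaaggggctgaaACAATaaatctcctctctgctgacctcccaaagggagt
Eng: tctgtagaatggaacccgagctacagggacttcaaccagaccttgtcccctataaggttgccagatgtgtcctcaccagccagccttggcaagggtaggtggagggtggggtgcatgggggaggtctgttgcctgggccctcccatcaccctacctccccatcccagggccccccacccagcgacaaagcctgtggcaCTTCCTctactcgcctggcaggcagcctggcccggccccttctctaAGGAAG
Myct1: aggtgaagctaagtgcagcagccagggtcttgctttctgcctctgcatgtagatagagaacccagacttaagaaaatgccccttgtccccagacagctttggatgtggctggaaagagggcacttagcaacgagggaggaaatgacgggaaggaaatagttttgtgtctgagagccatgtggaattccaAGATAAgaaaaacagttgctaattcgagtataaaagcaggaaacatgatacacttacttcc
Cldn5: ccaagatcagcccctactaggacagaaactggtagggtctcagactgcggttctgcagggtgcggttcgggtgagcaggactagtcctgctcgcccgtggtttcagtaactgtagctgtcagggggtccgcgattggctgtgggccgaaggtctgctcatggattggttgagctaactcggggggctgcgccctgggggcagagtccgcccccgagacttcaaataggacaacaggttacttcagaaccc
AGGAAG stood in 2 of the 5 promoters, at 2 places each in Emcn and Eng, against 29.5% of the 32851 promoters of the table. AGATAA stood only in Myct1 among the 5 (9.99% of all promoters), and ACAAT only in Emcn (27.7% of all promoters). The short ETS core GGAA, which the longer motif contains, was present in 4 of the 5 and in 93.4% of all promoters, and CACCC (KLF family) in 3 of the 5 and in 52% of all. Cldn5 and Kdr held none of the 3 motifs marked by capitals in their windows, but both held CACCC, and Kdr also held GGAA. These matches are descriptions of the letters and not of binding.

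Values are the authors' estimated counts, added up within each group and given per 1000000 counts of genes with a symbol (CPM), with exact Poisson 95% limits that cover counting error only. The median total was 943772 counts for HSC cells, 1033890 for Dorsal cells, 574689 for Ventral cells and 505916 for Mesenchymal cells, and no pair of cells held identical values. For detection, 310000 counts were drawn at random from every cell, and a gene was called positive with at least 5 counts. This left 64 HSC, 92 Dorsal, 80 Ventral and 69 Mesenchymal cells. Sort genes followed the gates: Procr, which encodes EPCR, stood at 163 CPM in HSC and at most 1.45 CPM in the other groups (the Ventral value, 0.69 CPM without the cell Ventral 57 described below), and Ptprc, which encodes CD45, stood at 279 CPM in HSC, 35.2 CPM in Dorsal, 33.8 CPM in Ventral cells and 0.15 CPM in Mesenchymal cells. Procr had at least 5 counts in 55 and Ptprc in 60 of the 65 HSC cells. None of the 10 measured neural crest genes, 9 mesenchymal genes or 11 macrophage genes was at least 2-fold higher in HSC than in every other group. Pecam1, often used to mark endothelium, stood at 2483 CPM in HSC, 3645 CPM in Dorsal, 2067 CPM in Ventral and 3431 CPM in Mesenchymal cells. It was not used as a marker by itself, but it is counted among the 30 further endothelial genes used below. All 96 pairs of index sequences were used in more than 1 pool, 55 of them in all 4.

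Some cells went against the gene of their gate. No count of Procr or of Ptprc was found in 4 of 65 HSC cells, of Ngfr in 0 of 93 Dorsal and 16 of 89 Ventral cells, and of Pdgfrb in 9 of 88 Mesenchymal cells. At least 5 counts of Ptprc with fewer than 5 of Ngfr were found in 6 Dorsal and 11 Ventral cells, among them Dorsal 33 (279.2 of Ptprc, 426.6 of Runx1 and 3.63 of Ngfr). Without the cells with no count of a gene of their gate, the numbers of genes called higher in HSC were the same. The cells that bear most on the 8 genes are described here. Ventral 57, sorted as Ngfr+, had no Ngfr and no Ptprc counts and held 7 of the 8 endothelial genes, with 29 of 30 further endothelial genes also at 5 counts or more. HSC 37 had no Procr counts, 450.2 of Ptprc, 6818.1 of Mpo (a granule enzyme of myeloid cells) and 5599.5 of Fcgr3 (an Fc receptor), and no more than 2.4 counts of any of the 8 genes. Values without Ventral 57 are given beside the results on the 8 genes that it moves by more than 1.5-fold, and leaving out HSC 37 changed neither the number of genes called higher, nor the median number of genes per cell, nor the number of correlated pairs.

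All 8 genes were at least 2-fold higher in HSC than in Dorsal, against 11.3% of the 13123 genes with at least 100 counts in these groups. All 8 were also higher than in Ventral (14.1% of 13104 genes), and 7 of 8 were higher than in Mesenchymal (16.6% of 12758 genes). Against whichever of the other 3 groups was highest for the gene, 7 of 8 were at least 2-fold higher in HSC, compared with 6.79% of 13446 genes. The exception was Kdr. The median log2 ratio of CPM + 1 for the 8 genes was 4.69 against Dorsal, 3.69 against Ventral and 5.11 against Mesenchymal, while the medians over all measured genes were -0.26, -0.21 and -0.10. The 3 comparisons share the HSC cells and are not independent of each other. By the labels no group was sorted as endothelial, and HSC was the only group gated on EPCR and CD45. These counts therefore compare HSC with Ngfr+ and Pdgfrb+ gates only. How far the EPCR gate itself raised the 8 genes was not tested. Without Ventral 57 all 8 remained higher than in Ventral.

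**Figure D1:**
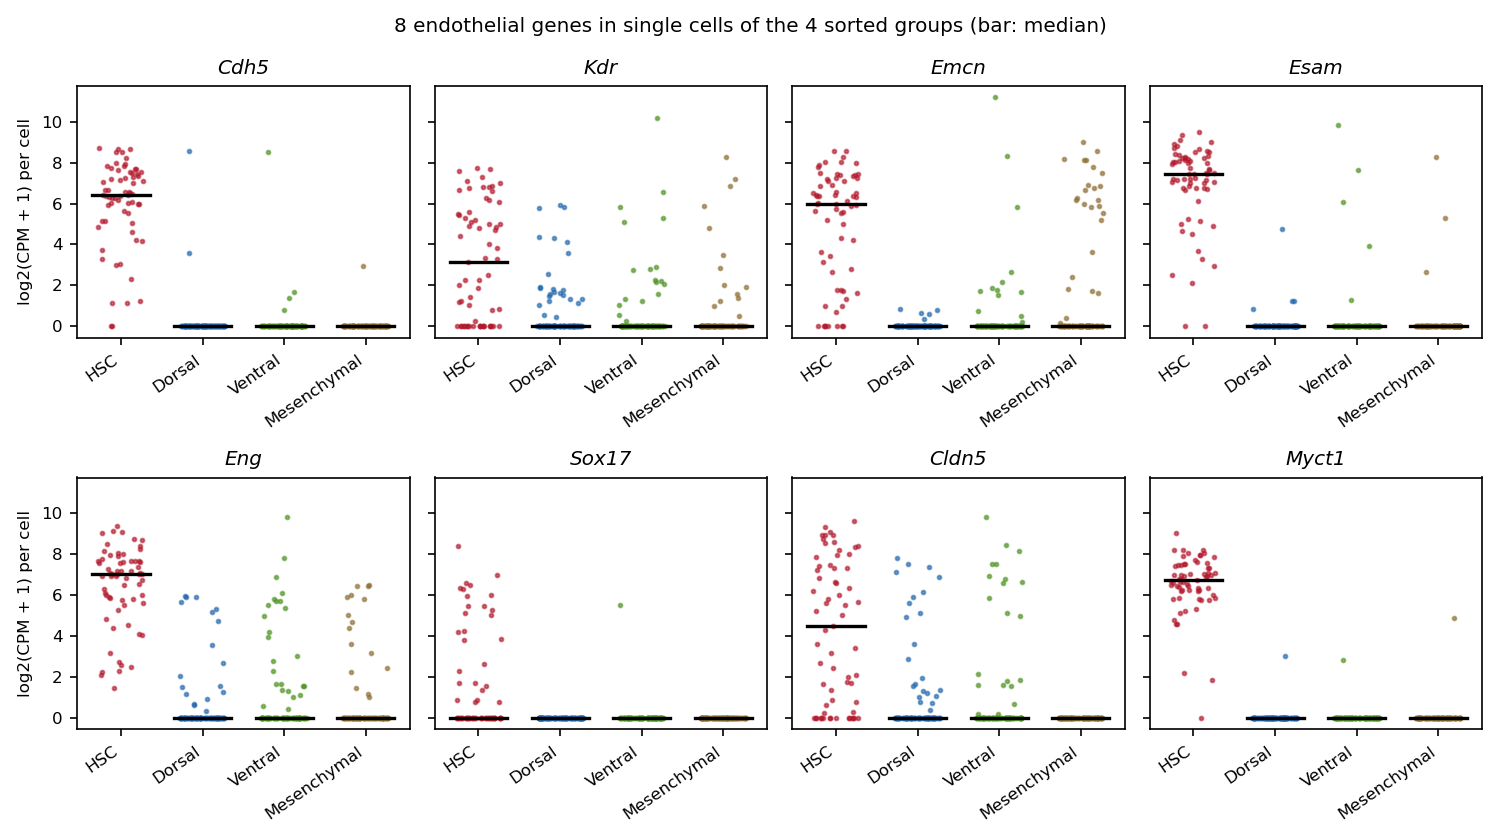
Level of each endothelial gene per cell, as log2(CPM + 1) on the vertical axis, in the HSC, Dorsal, Ventral and Mesenchymal groups (points are cells, bars are medians over cells). The medians of the Dorsal, Ventral and Mesenchymal groups lie at 0 for each gene, and single cells of these groups reach the range of the HSC cells, among them 20 Mesenchymal cells with Emcn, Ventral 57, Dorsal 33 for Cdh5 and Mesenchymal 53 for Kdr.

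The junction genes were high in most HSC cells. Cdh5 (VE-cadherin, the adherens junction protein of endothelium; chr8:104101625-104144511, plus strand) ran from 0 to 416 CPM over the 65 HSC cells with a median of 84.4, and summed to 109 CPM (107 to 111). In the other groups it summed to 3.34 CPM in Dorsal, 1.91 in Ventral and 0.043 in Mesenchymal, and each of these medians over cells was 0. In both Ngfr+ groups nearly every Cdh5 count came from a single cell. Dorsal 33 held 352 of the 362 Dorsal counts and Ventral 57 held 206 of the 211 Ventral counts. The log2 ratio was 4.66 against Dorsal and 6.65 without Dorsal 33, and 5.24 against Ventral and 6.72 without Ventral 57. Mesenchymal cells held 3 counts of Cdh5 in all, each of them in Mesenchymal 8, which gives a ratio of 2533 with limits of 851 and 12072. Cdh5 was positive in 54 of 64 thinned HSC cells (84.4%, exact Clopper-Pearson limits 73.1% to 92.2%), against 1 of 92 Dorsal, 1 of 80 Ventral and 0 of 69 Mesenchymal cells. The 0 of 69 has an exact upper limit of 5.21%.

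Esam, an immunoglobulin-family adhesion molecule of endothelial junctions that also marks blood stem cells of the mouse (chr9:37528078-37538319, plus strand), had the highest summed CPM of the 8 genes in HSC. It ran from 0 to 719 CPM with a median of 177 and summed to 200.2 CPM (197 to 203), against 0.37 CPM in Dorsal, 6.20 in Ventral (1.57 without Ventral 57) and 2.62 in Mesenchymal. Thus most HSC cells lay above nearly all cells of the other groups, although HSC 54 (719 CPM), the highest of its group, lay below Ventral 57 (922 CPM). Log2 ratios were 7.20 against Dorsal, 4.80 against Ventral and 5.80 against Mesenchymal. They became 6.29 without Ventral 57 and 7.36 without Mesenchymal 66, which held 164 of 180 Mesenchymal counts. Positive cells were 56 of 64 HSC cells (87.5%), 1 of 92 Dorsal, 3 of 80 Ventral and 1 of 69 Mesenchymal cells.

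Cldn5, a claudin of endothelial tight junctions (chr16:18776847-18778262, plus strand), was split more sharply between HSC cells. Its lowest, median and highest values were 0, 21.6 and 802 CPM, with 15 of 65 cells at 0, and it summed to 101 CPM (98.9 to 103). The mean was thus carried by a part of the cells. Dorsal cells summed to 8.77 CPM and Ventral cells to 18.6 CPM, and the 88 Mesenchymal cells held no Cldn5 count. The log2 ratio was 3.38 against Dorsal and 2.38 against Ventral, and HSC was at least 2309-fold higher than Mesenchymal, with a floor of 3 counts over the group. After thinning, 35 of 64 HSC cells (54.7%, 41.7% to 67.2%) were positive. The gene was also found in 9 of 92 Dorsal cells (9.78%) and 12 of 80 Ventral cells (15%), and in 0 of 69 Mesenchymal cells, so it was the member of the junction group most often seen in Ngfr+ cells.

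The receptor genes differed from each other. Eng (endoglin, a co-receptor for ligands of the TGF-beta family; chr2:32646595-32682669, plus strand) was the only member of the 8 without a 0 in HSC. It ran from 1.77 to 674 CPM with a median of 130 and summed to 148 CPM (146 to 151). Dorsal cells summed to 4.64 CPM, Ventral cells to 11.4 CPM (6.81 without Ventral 57) and Mesenchymal cells to 5.96 CPM. The medians of the other groups were 0, but single cells there reached 61.5 CPM in Dorsal, 922 CPM in Ventral and 88.5 CPM in Mesenchymal, so the groups overlapped. Log2 ratios were 4.72 against Dorsal, 3.59 against Ventral (4.26 without Ventral 57) and 4.42 against Mesenchymal. Positive cells numbered 54 of 64 for HSC, 7 of 92 for Dorsal, 11 of 80 for Ventral and 7 of 69 for Mesenchymal.

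Kdr, the main signalling receptor for VEGF-A (chr5:75932827-75978458, minus strand), was found in fewer HSC cells. Its values there ran from 0 to 211 CPM with a median of 7.89 and 20 of 65 cells at 0, and summed to 29.5 CPM (28.3 to 30.7). It summed to 3.78 CPM in Dorsal, 7.97 in Ventral (2.10 without Ventral 57) and 14.8 in Mesenchymal. Mesenchymal 53 alone held 763 of the 1014 Mesenchymal counts and stood at 311 CPM, above the highest HSC cell. The log2 ratio of HSC to Mesenchymal was 0.95, short of 2-fold, and it was 2.67 without Mesenchymal 53. Leaving out HSC 22, HSC 23, HSC 24, Mesenchymal 57 or Mesenchymal 84 also took it past 2-fold, to between 1.01 and 1.06. Against Ventral it was 1.77, or 3.30 without Ventral 57, and against Dorsal it was 2.67. By detection the difference was plainer, with 30 of 64 HSC cells positive (46.9%, 34.3% to 59.8%), 5 of 92 Dorsal, 5 of 80 Ventral and 4 of 69 Mesenchymal cells.

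Emcn (endomucin, a sialomucin of venous and capillary endothelium and of early blood stem cells; chr3:137341067-137432185, plus strand) was the gene found in the largest share of cells of another group. It ran from 0 to 381 CPM over HSC cells with a median of 62.8, and summed to 115 CPM (113 to 118). Mesenchymal cells summed to 30.2 CPM and Ventral cells to 17.3 CPM (5.48 without Ventral 57), while the 93 Dorsal cells held 4 counts in all. In Mesenchymal the counts were spread over cells: 20 of 88 had at least 5 counts, 62 had none, and the highest stood at 509 CPM, above the highest HSC cell. The log2 ratio was 1.90 against Mesenchymal and 2.67 against Ventral (4.17 without Ventral 57), and against Dorsal the ratio of CPM was 3139 with limits of 1221 and 11478. After thinning, 43 of 64 HSC cells (67.2%) and 15 of 69 Mesenchymal cells (21.7%, 12.7% to 33.3%) were positive, against 0 of 92 Dorsal and 3 of 80 Ventral cells. No other of the 8 genes was positive in more than 10.1% of Mesenchymal cells.

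Sox17 (chr1:4490931-4497354, minus strand) was the rarest of the 8 in HSC and nearly absent elsewhere. It had no count in 38 of 65 HSC cells, a median of 0 and a highest value of 339 CPM in HSC 28, which held 424 of the 1313 counts. The sum was 15.9 CPM (15.1 to 16.8). No Dorsal and no Mesenchymal cell held a count, and the 25 Ventral counts were all in Ventral 57, so that no count remained without it. HSC was at least 575-fold higher than Dorsal and at least 364-fold higher than Mesenchymal, with a floor of 3 counts over each group, and 70-fold higher than Ventral (47.5 to 109). Of 64 thinned HSC cells 14 were positive (21.9%, 12.5% to 34%), below the 25% reached by the other 7 genes. Among all genes, 54.1% of 13448 reached 25% of HSC cells.

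Myct1, in human blood stem cells a regulator of endocytosis (chr10:5593775-5606904, plus strand), was the most widely detected. It ran from 0 to 520 CPM with a median of 106 and 1 cell at 0, and summed to 163 CPM (160.2 to 166). HSC 23, the deepest HSC cell, held 3686 counts, 27.4% of the sum. Dorsal cells held 5 counts and Ventral cells 3 (all in Ventral 57), so the ratio to Ventral was 5384 with limits of 2056 and 29140, and the 70 Mesenchymal counts were all in Mesenchymal 53, the cell that also held most Kdr of its group. Against Mesenchymal the log2 ratio was 6.34, and it was 7.36 without that cell. Positive cells were 61 of 64 for HSC (95.3%, 86.9% to 99.0%), 0 of 92 for Dorsal, 0 of 80 for Ventral and 1 of 69 for Mesenchymal.

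Levels of different genes were compared per kilobase of exon. In HSC, Cldn5 stood at 71.4, Esam at 69.8, Myct1 at 57.3, Eng at 36.6, Cdh5 at 25.9 and Emcn at 21.3 CPM per kilobase, well above Sox17 (3.33) and Kdr (3.27). With the longest transcript in place of all exons Esam came first, at 107 CPM per kilobase, and Kdr passed Sox17, at 4.98 and 4.91 CPM per kilobase. The spread over thinned HSC cells followed another order. The coefficient of variation was 0.71 for Myct1, 0.77 for Esam, 0.91 for Cdh5, 0.95 for Eng, 1.06 for Emcn, 1.47 for Kdr, 1.51 for Cldn5 and 2.84 for Sox17. Cldn5, the highest per exon length, was thus among the most uneven, and Myct1 the most even. Antisense or overlapping genes are annotated at Cdh5, Eng and Sox17, and the use of strand in the counting is not given in the sources used here, so reads of such partners cannot be told apart there.

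Most HSC cells held most of the genes. The median was 6 of 8 genes per thinned HSC cell, with 61 of 64 cells holding at least 3, 47 at least 5 and 7 all 8. In Dorsal, 69 of 92 cells held none and 23 held 1. Ventral cells held none in 53 of 80 cases, 1 in 23 and 2 in 3, besides Ventral 57 with 7. Mesenchymal cells held none in 45 of 69 cases, 1 in 20 and 2 in 4. Without thinning, 63 of 65 HSC cells held at least 3 genes, and at least 5 counts were found in 63 of the 65 for Myct1, 61 for Esam, 59 each for Cdh5 and Eng, 46 for Emcn, 37 for Cldn5, 33 for Kdr and 18 for Sox17. Cells with 3 or more of the genes were therefore absent outside HSC except for Ventral 57.

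**Figure D2:**
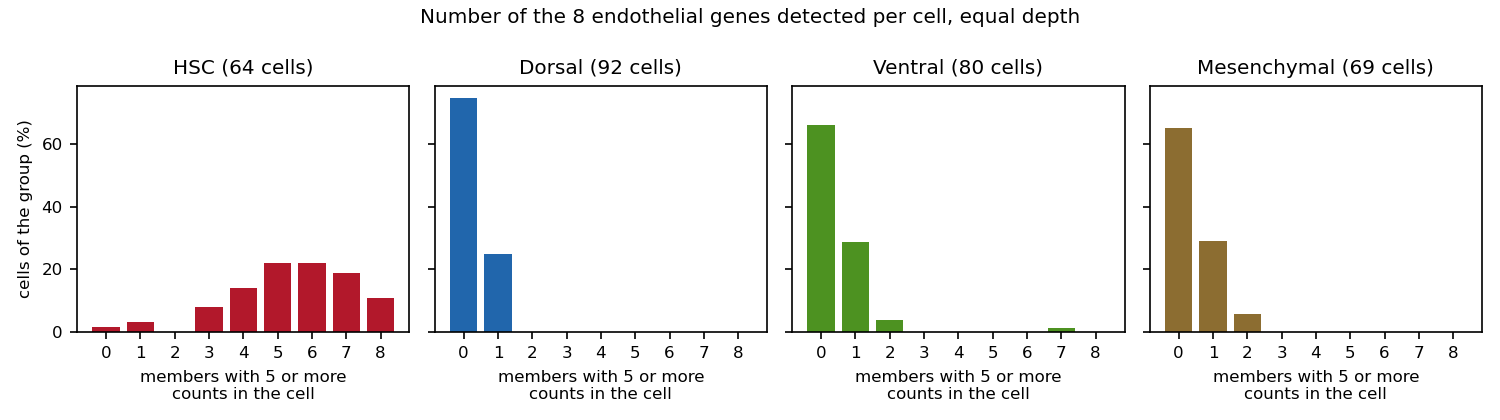
Number of the 8 endothelial genes with at least 5 counts per cell (horizontal axis) after thinning to equal depth, as a percent of the cells of the HSC, Dorsal, Ventral and Mesenchymal groups (vertical axis). HSC cells centre on 5 and 6 genes, and the other groups on 0, with 1 Ventral cell at 7.

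The endothelial genes and blood genes were found in the same cells. Of the 61 HSC cells with at least 3 endothelial genes, 57 were positive for Ptprc, 58 for Runx1 (the transcription factor needed for the transition) and 61 for Spi1 (a transcription factor of blood cells), and 54 were positive for all 3. Over all 64 thinned HSC cells Ptprc was positive in 59, Runx1 in 61 and Spi1 in 64, so these shares follow the overall ones. Since the cells were sorted as EPCR+CD45+, the presence of Ptprc and of Procr in most of them was set by the gate. Cdh5 and Ptprc were detected together in 50 cells, Cdh5 alone in 4 and Ptprc alone in 9. Of the 14 Sox17-positive cells, 14 held Procr, Runx1 and Mecom (a transcription factor of blood stem cells). Among them 12 held Ptprc and 10 held Gfi1, a repressor of endothelial genes. For comparison, Procr was positive in 53, Mecom in 59 and Gfi1 in 33 of the 64 cells. The 7 cells with all 8 genes had totals from 475281 to 1402111 counts, and 6 of them were positive for Ptprc, Runx1 and Spi1. HSC 64, the exception, held 1.37 counts of Ptprc.

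Within HSC, 6 of the 8 genes formed pairs whose levels varied together from cell to cell. Spearman correlations were taken over the 64 thinned cells, which share 1 pool and an equal depth, and are given as a description. Of the 28 pairs, 9 reached a rho of 0.3, against 2.23% of all gene pairs. The strongest were Cdh5 with Cldn5 (0.49), Sox17 with Cldn5 (0.44), Esam with Cldn5 (0.40), Eng with Cldn5 (0.40) and Cdh5 with Sox17 (0.38). Cldn5 took part in 5 of the 9, and Emcn and Myct1 in none. Emcn had a rho of -0.22 with Cdh5 and -0.13 with Cldn5, and Myct1 a rho of -0.06 with Sox17. Pearson correlations of the log2 counts gave Eng with Myct1 0.42, where the Spearman rho was 0.29. Each gene's rho with the mean pattern of the other 7 was 0.52 for Cldn5, 0.45 for Cdh5, 0.44 for Sox17, 0.42 for Eng, 0.40 for Esam and 0.37 for Kdr, and it was 0.09 for Myct1 and -0.06 for Emcn. Sox17 and Kdr were at or near 0 in most cells, where rank correlations rest on few cells.

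**Figure D3:**
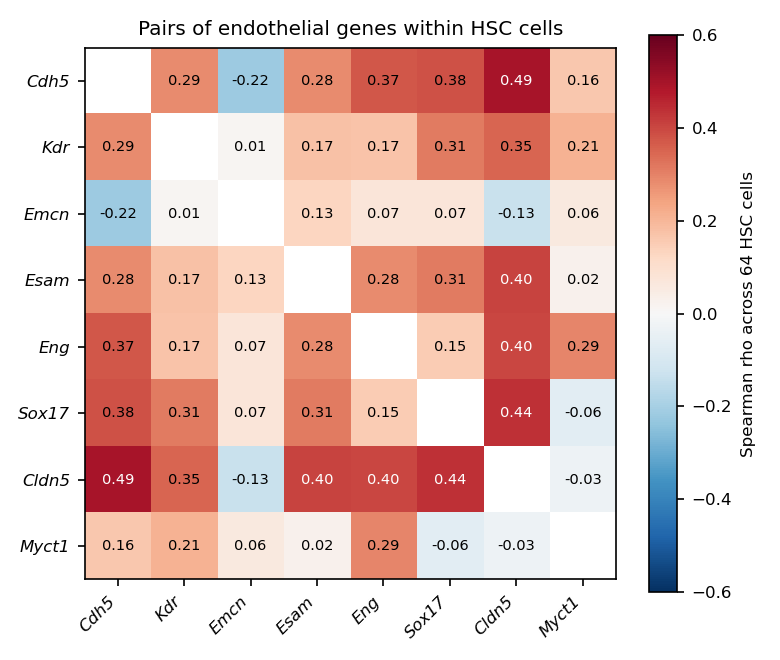
Spearman rho between each pair of the 8 endothelial genes over 64 HSC cells thinned to equal depth (colour scale from -0.6 to 0.6). Cldn5 has the highest values, up to 0.49 with Cdh5, and the rows of Emcn and Myct1 stay below 0.3.

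**Figure D4:**
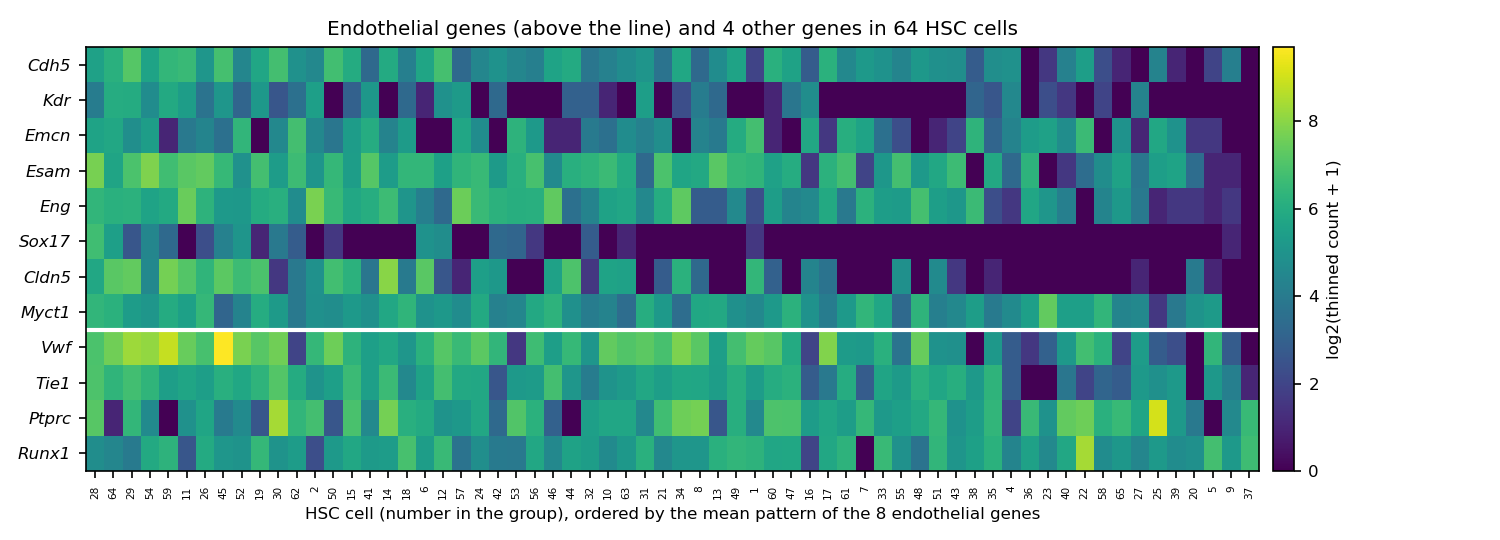
Thinned counts as log2(count + 1), shown by colour, of the 8 endothelial genes (above the line) and of Vwf, Tie1, Ptprc and Runx1 (below it) in 64 HSC cells, ordered from left to right by the mean pattern of the 8 genes. Sox17, Kdr and Cldn5 counts thin out towards the right, Myct1 and Emcn run through most cells, and HSC 37 at the right end holds none of the 8.

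The order of cells by this mean pattern had a rho of -0.06 with the total count. The sort gene Procr gave 0.58 and the sort gene Ptprc -0.12. Procr had a rho of 0.67 with Cdh5, 0.59 with Cldn5 and 0.47 with Sox17, and of -0.13 with Emcn and 0.07 with Myct1. Runx1 gave -0.42 with Eng and 0.09 with Cdh5. Since the cells were gated on EPCR, only part of its range was sampled.

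Of the 10 genes most like the mean pattern of the 8, 5 belonged to the list of further endothelial genes described below (Vwf, Tie1, Ramp2, Ecscr and Icam2). The 10 highest by Spearman rho among 8617 genes were Vwf (0.62), a glycoprotein of platelet adhesion stored in endothelium, Cdkn1c (0.61), an inhibitor of cyclin-dependent kinases, Tie1 (0.59), an endothelial receptor tyrosine kinase, Ramp2 (0.58), a partner of the adrenomedullin receptor, Tjp1 (0.57), a scaffold of tight junctions, Cyp26b1 (0.56), a retinoic acid hydroxylase, Ecscr (0.56), an endothelial surface protein, Serpinf1 (0.55), a secreted serpin, Col4a2 (0.55), a basement membrane collagen, and Icam2 (0.54), an adhesion molecule. The 8 genes themselves and the sort genes were not eligible. A rho of 0.3 or more was reached by 403 genes (4.68%), and a rho of -0.3 or less by 39 (0.45%). Of the 10, Vwf, Tie1, Ecscr, Icam2, Cyp26b1, Ramp2 and Tjp1 were at least 2-fold higher in HSC than in each other group. The share over all genes was 6.79%. Only genes with 5 thinned counts in at least 10 HSC cells could be ranked, so that share is not like for like. Cdkn1c was at 269.9 CPM in HSC, 3394 CPM in Dorsal, 2256 CPM in Ventral and 625 CPM in Mesenchymal, so its likeness within HSC went with a lower level than in the other groups. Tie1 stood at 142 CPM in HSC and at most 4.97 CPM elsewhere, and its partner receptor Tek at 133 CPM in HSC and at most 1.01 CPM elsewhere, with a rho of 0.25. Both maxima were those of Ventral, which stood at 0.34 CPM for Tie1 and 0.0087 CPM for Tek without Ventral 57.

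Of the 10 genes least like the pattern, 1 (Rac2) belonged to the blood lists described below. In order, the first were Samsn1, an adaptor protein of blood cells (-0.51), Klk8 (-0.46), Rps25 (-0.41) and Srgn, the proteoglycan of blood cell granules (-0.41). Then came Nudt21 (-0.40), Gng2 (-0.40), Ergic2 (-0.39) and Enah (-0.38). Last were Rac2, a small GTPase of blood cells (-0.38), and Arhgdib, a signalling protein abundant in blood cells (-0.36). The median rho was 0.04 over the blood transcription factors and 0.02 over the blood surface and effector genes, against 0.06 over all genes. Samsn1 stood at 243 CPM in HSC and at most 3.99 CPM in the other groups.

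Taken singly, the 8 genes had different nearest genes. For Cdh5 they were Vwf (0.63), Tie1 (0.62) and Col4a2 (0.57), and for Cldn5 Serpinf1 (0.60), Cpxm1 (0.58) and Cdkn1c (0.57). Esam was most like Trim47 (0.55), Hscb (0.54) and Serpinf1 (0.53), Eng most like Avpi1 (0.57), Icam2 (0.54) and Taok1 (0.53), and Sox17 most like Cracr2b (0.53), Ercc4 (0.50) and Ecscr (0.50). Kdr gave Ctnnal1 (0.44), Shc1 (0.43) and Mllt3 (0.41). Emcn gave Tsc22d4 (0.51), Fam173a (0.47) and Abi1 (0.44), and Myct1 gave Chchd2 (0.53), Nab2 (0.50) and Dedd2 (0.48). Members of the further endothelial list were among the nearest 3 of Cdh5, Eng and Sox17, and not of the other 5 genes.

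Other lists placed these values. Over all genes, 6.79% were at least 2-fold higher in HSC than in each other group, and 4.68% had a rho of 0.3 or more. Among 30 further endothelial genes, HSC was at least 2-fold higher for 19 than in each other group and 2 (Cav1 and Mcam) were lower than in each, with a median log2 ratio to the highest other group of 2.55, against -0.63 over all genes. Lower values than in each other group held for 11.3% of genes. The largest were Tek (6.05), Cd34 (5.77), Adgrl4 (5.69) and Ecscr (5.33). Within HSC cells 14 of 25 had a rho of 0.3 or more with the mean pattern, with a median of 0.31, against 0.06 over all genes. Cd34 and Adgrl4, although high in HSC, had a rho of 0.07 and -0.15.

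Of 13 arterial genes, 6 were higher in HSC than in each other group and 2 (Nrp1 and Jag1) were lower than in each. Gja5 and Gja4, connexins of arterial endothelium, had the largest log2 ratios, 3.33 and 3.29, followed by the kinase gene Bmx with 2.08. Bmx (0.47), Gja4 (0.46), Vegfc (0.45), Nrp1 (0.39), Gja5 (0.37) and Efnb2 (0.34) had a rho of 0.3 or more, 6 of the 8 that were detected often enough. None of the 4 venous genes outside the 8 was higher in HSC than in each other group. Nr2f2, the venous identity factor, stood at 0.11 CPM in HSC against 63.8 in Dorsal, 90.7 in Ventral and 178 in Mesenchymal. Emcn, described above as a gene of venous and capillary endothelium, belongs to the 8 and is not among these 4. It went the other way, at least 2-fold higher in HSC (115 CPM) than in Mesenchymal (30.2 CPM), the highest other group.

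The blood lists were also higher in HSC, against 6.79% of all genes at least 2-fold higher than in each other group. Few of their genes reached a rho of 0.3 with the endothelial pattern, as did few of all genes (4.68%). A rho of -0.3 or less was reached by 0.45% of all genes. Of 22 transcription factors of haemogenic and blood cells, 16 were higher in HSC than in each other group and none lower than in each, with Hlf (5.47), Gfi1 (42.6 CPM in HSC and no count in the other groups) and Lmo2 (5.23) at the top. Of the 21 detected often enough, Lyl1 (0.38) and Mecom (0.34) reached a rho of 0.3. Gfi1 stood at 0.28 and Gfi1b at -0.33. Of 25 surface and effector genes, 17 were higher, with Mpo (7.76), Hbb-bt (6.14) and Procr (6.07) first. The 17 include the 2 sort genes Procr and Ptprc, whose higher level follows from the gate. Mpo was uneven between cells, with 6818.1 counts in HSC 37 and 6491.6 in HSC 52. Of the 23 detected often enough, 1, the sort gene Procr, reached a rho of 0.3. Rac2 (-0.38), Tyrobp (-0.33) and Angpt1 (-0.32) lay below -0.3, which is 3 of the 23. Of 16 cell cycle genes none was higher in HSC than in each other group and none had a rho beyond 0.3 in either direction, with a median of -0.09. Among 4 erythroid genes 2 were higher in HSC than in each other group, and among 8 megakaryocyte genes 5 were, Vwf being 1 of them. Of 18 signalling genes linked to the transition, some also in the arterial list, 3 were higher in HSC and 3 lower than in each other group, and 1 of 12, Smad6 (0.34), reached a rho of 0.3.

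**Figure D5:**
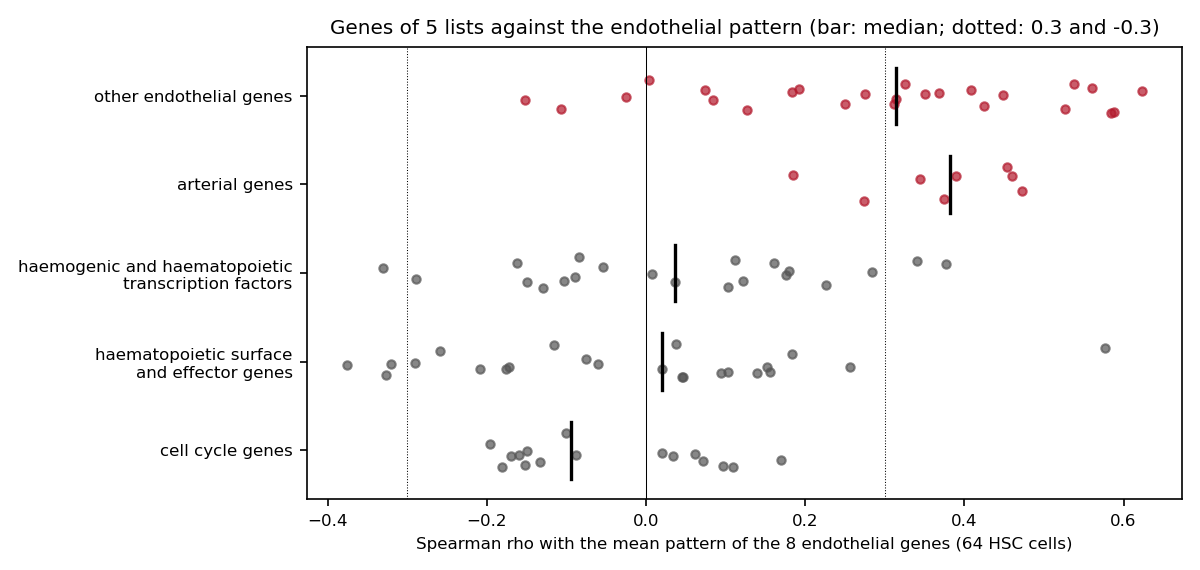
Spearman rho of single genes with the mean pattern of the 8 endothelial genes over 64 HSC cells (horizontal axis) for 5 lists of genes (rows; points are genes, bars are medians). The other endothelial and arterial lists have medians of 0.31 and 0.38, and the blood and cell cycle lists lie around 0.

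The cells at the ends of the range were looked at singly. HSC 37 (1375527 counts in total) had 2.4 counts of Eng and 0 of the other 7, no more than 1.9 counts of Tek and Tie1, 498.1 of Runx1 and 497.6 of Gata2, and 9 of 30 further endothelial genes at 5 counts or more. It held the highest Mpo and Fcgr3 counts of HSC. HSC 5 (473766 counts) held 56.8 counts of Myct1 and between 0 and 5.8 of each of the other 7, no Procr and no Ptprc, 156.1 of Runx1 and 66 of Spi1. HSC 9 (943772 counts) had 30.5 of Cdh5, 27.2 of Procr and 141.2 of Spi1. Further endothelial genes reached 5 counts for 16 of 30 genes in HSC 5, with 93.1 counts of Tek, 63.2 of Tie1 and 121.2 of Vwf, and for 14 of 30 in HSC 9, with 57.9 of Tie1 and 440.2 of Egfl7. The 3 cells low in the 8 genes thus differed in the rest of the endothelial list.

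At the other end HSC 28 held 423.72 counts of Sox17, 826.67 of Esam, 369.02 of Myct1 and 780.34 of Procr. HSC 29 held 504.38 of Cldn5, 383.44 of Cdh5 and 194.2 of Kdr, and both held Ptprc (607.28 and 280.54 counts) and Runx1 (92 and 55.88 counts). Ventral 57 (556795 counts) differed from these: it held 1311.3 counts of Emcn, 649.7 of Kdr, 513.5 of Eng, 513.2 of Esam, 511.1 of Cldn5, 206.2 of Cdh5, 25.1 of Sox17 and 3.3 of Myct1, with 0.9 of Runx1, 0.6 of Spi1 and no Gfi1. Its Emcn (2355 CPM), Kdr (1167 CPM), Eng, Esam and Cldn5 lay above every HSC cell, and its Myct1, at 6.01 CPM, below nearly all of them. It held 83.8 counts of Procr. None of the 16 wells of its pool that share an index with it held 5 counts of Cdh5, Emcn, Esam, Sox17, Cldn5 or Myct1. Eng reached 5 counts in 4 of these 16 and in 7 of the 72 other wells, and Kdr in 1 of the 16 and in 3 of the 72.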

How the data were processed

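Single cells were assigned to groups by the labels, 335 cells in 4 groups. The deposited estimated counts come from the authors' use of kallisto 0.43.1 and GRCm38, per the submitters' processing notes, and are neither whole nor scaled for depth. The deposited log2 table, used for 1 alternative, holds the authors' log2 of count over a size factor, plus 1, as the values show. How transcripts were summed, which filters were used and how size factors were set is not given in the sources used here. The 661 entries without a symbol (2.96% of counts) were left out of totals. No column lacked a sample.

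Counts were summed per group and given as CPM with exact Poisson limits. A gene was called at 2-fold or more on log2(CPM + 1), with at least 100 counts in the groups compared. Counts were rounded and thinned without replacement to 310000 per cell with a fixed seed, and 5 counts made a cell positive. The mean pattern averages the standardised log2(thinned count + 1) of the 8 genes, and genes with 5 counts in at least 10 cells were ranked by rho with it. The 10 highest and 10 lowest are named, the 3 highest per gene, and from each list the 2 to 4 with the largest ratios, with others where they bear on a result. Genes and exon lengths come from GENCODE M21. The steps were tested on simulated data. The members, lists and rules were chosen with earlier results of these data known. Python 3.11.15 with numpy 2.4.6, pandas 2.3.3 and scipy 1.17.1 was used. Alternatives were other weights, totals, constants, thresholds, thinning and left-out cells.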

Additional observations from a re-analysis of the deposited data

How the results depend on the processing

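None of the numbers of the 8 genes called, detected or paired moved by more than 1.5 times under the alternatives run. The number of the 8 genes at least 2-fold higher in HSC was 8 against Dorsal throughout, 7 or 8 against Ventral, and 6 to 8 against Mesenchymal and against the highest other group. The gene in question was mostly Kdr: with cells weighted equally, with the mean of the authors' log2 values, or without the cell with the highest count in each group, 8 of 8 were higher than in Mesenchymal, and at 4-fold neither Kdr nor Emcn was. All 96 log2 ratios of single genes to the highest other group, over 12 alternatives each, kept their sign, but 24 moved by more than 1.5-fold: they ran from 1.76 to 5.61 for Sox17, 0.70 to 2.69 for Kdr, 3.87 to 6.92 for Esam, 3.01 to 5.72 for Eng, 1.32 to 3.5 for Emcn, 3.77 to 6.48 for Cdh5, 2.12 to 3.38 for Cldn5 and 4.80 to 7.19 for Myct1. The number of genes positive in at least 25% of HSC cells was 7 or 8, since Sox17 passed with 1 count or without thinning. The median number of genes per cell was 5 or 6. Pairs with a rho of at least 0.3 numbered 7 to 12. Of the 10 genes most like the mean pattern, 7 were also in the 10 with Pearson correlation, 8 without thinning and 4 with the median rho over the 8 genes, and of the 10 least like it 5 to 8 were, so both sets depend on the measure. The alternatives without Ventral 57, HSC 37 or the cells with no count of a gene of their gate were chosen after seeing the data. Sox17 and Kdr had the fewest counts, with medians of 0 and 3.5 thinned counts per HSC cell. No paired analysis was possible because no test was made and each group is 1 sample.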
